A study of Saccharomyces cerevisiae with 74 samples.

Results

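The results concern eIF4B crosslinking in budding yeast (Saccharomyces cerevisiae) that was heat-shocked at 42 °C for 16 min in the presence of cycloheximide (CHX), set against heat shock for the same time without the drug. The libraries were chosen by their titles: 97 and 99 for heat shock with CHX, and 23, 56, 75 and 98 for heat shock alone, that is 6 of the 74 libraries of the series. All came from haploid cells carrying a tagged chromosomal copy of TIF3, the gene for eIF4B, grown in glucose medium, filtered, and moved to warm medium before ultraviolet crosslinking. The 4 eIF4B control libraries (08, 21, 26 and 71) came from cells grown at 30 °C and crosslinked directly in their growth medium. The tag is carried by every eIF4B group. CHX is named in the titles and source names of libraries 97 and 99, while their treatment field gives only the temperature. No eIF4B library of CHX without heat shock was analysed here, so the effect of the drug on its own and its effect during heat shock cannot be told apart. Spike-in RNA-seq of untagged wild-type cells accompanied the CRAC data, with 2 libraries (J and O) for heat shock with CHX, 3 (E, F and I) for heat shock alone and 3 (A, B and H) for control.

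eIF4B is an RNA-binding cofactor that helps the helicase eIF4A and the small ribosomal subunit to load on the 5′ leader of an mRNA and to scan to the start codon. In CRAC (crosslinking and analysis of cDNA) a tagged protein is purified with the RNA to which ultraviolet light has bound it, so that reads on a transcript report contact with that protein. CHX blocks the elongating ribosome on the mRNA, which stops run-off of ribosomes that have already initiated. Heat shock halts initiation, raises transcription of chaperone genes and is accompanied by rapid loss of the mRNAs for ribosomal proteins and ribosome assembly factors. The study used CHX to ask whether eIF4B leaves mRNAs even where the transcripts themselves are kept. The paper reports that eIF4B contact with specific mRNAs fell sharply in heat shock with CHX as well. It describes a similar result genome-wide, in profiles around start codons. The counts used here cover whole transcripts, so they do not say where along an mRNA the contact lay.

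The libraries differed in depth and in how they were counted. Reads on mRNAs numbered 260216 and 2052148 in the CHX libraries, against 68014, 46214, 509665 and 666719 in heat shock libraries 23, 56, 75 and 98. Libraries 97, 98 and 99 were counted on a later annotation version than all others, which lists further rRNA features, and library 98 is the only one of the heat shock group among them. Values below are therefore given on the 6105 mRNAs seen in libraries of both versions, as reads per 1000000 mRNA reads (RPM) unless stated. Left out were 443 mRNAs seen only with the earlier version, which held 1833 reads over the eIF4B libraries. An mRNA absent from libraries 97, 98 and 99 was thus not tested for eIF4B reads. The paper states that scaling of CRAC data to reads shows relative and not absolute changes in binding. The 4 untagged libraries held between 366 and 51807 mapped reads, against 192570 to 3488961 in the 6 libraries compared. URA3 and LEU2, deleted in the strain background, had 1 read or 0 in each of these libraries. Libraries 97 and 99 correlated with r = 0.74 across 6105 mRNAs (log2 of RPM + 1), and the 6 pairs of heat shock libraries with r of 0.39 to 0.76. These correlations run across genes, which are not independent replicates, and counts of every pair differed by more than sampling noise. Nothing in the labels says that libraries of a group came from separate cultures, so p-values measure spread between libraries. For the edgeR p-values of eIF4B this spread was shared by all 18 eIF4B libraries, not by the 6 compared alone. The 18 also held control, mock-shifted and glucose-withdrawal libraries.

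Reads in heat shock with CHX fell mostly on mRNAs, while most heat shock libraries were dominated by tRNA. mRNA took 56.5% and 62.5% of counted reads in libraries 97 and 99, against 29.3%, 25.2%, 31.5% and 44.7% in heat shock libraries 23, 56, 75 and 98. Both CHX libraries lay above all 4 heat shock libraries and below the mean of 66.5% ± 3.64 (SD, n = 4) in control cells. The difference between the group means was 26.8 percentage points (exact two-sided permutation test, p = 0.0667, adjusted p = 0.133 over 4 values tested). With 2 libraries against 4, the smallest p this exact test can give is 0.0667. Of counted reads other than rRNA, mRNA took 84.4% and 84.7% in libraries 97 and 99 and 69.2% in library 98. Control libraries lay at 70.1% to 75.7% on that base, so the place of the CHX libraries relative to control depended on the rRNA reads.

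Transfer RNA moved the other way. Its share was 7.24% and 7.83% in libraries 97 and 99, against 54.4%, 54.9%, 50.1% and 17.4% in libraries 23, 56, 75 and 98, and 22.6% ± 2.32 (SD, n = 4) in control. The CHX libraries were thus below every heat shock and control library (difference from heat shock -36.7 points, exact permutation p = 0.0667, adjusted p = 0.133). Against library 98 alone the difference was -9.86 points, so the size of the gap depends on which heat shock libraries are used. Library 98, without the drug but of the same annotation version, was also below every control library (20.4% to 24.8%). The 95% Wilson intervals of these shares reached at most 0.228 points to either side and cover counting error only.

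Ribosomal RNA was highest in libraries of the later annotation, with and without the drug. It took 33.0% and 26.2% of reads in libraries 97 and 99, against 13.4%, 15.5%, 15.9% and 35.4% in libraries 23, 56, 75 and 98 (exact permutation p = 0.4, adjusted p = 0.4). The 3 libraries of the later annotation were all higher than the other heat shock libraries and the controls (8.65% ± 1.66, SD, n = 4). The groups overlapped, and the difference was 9.55 points against all heat shock libraries and -5.81 points against library 98.

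**Figure D1:**
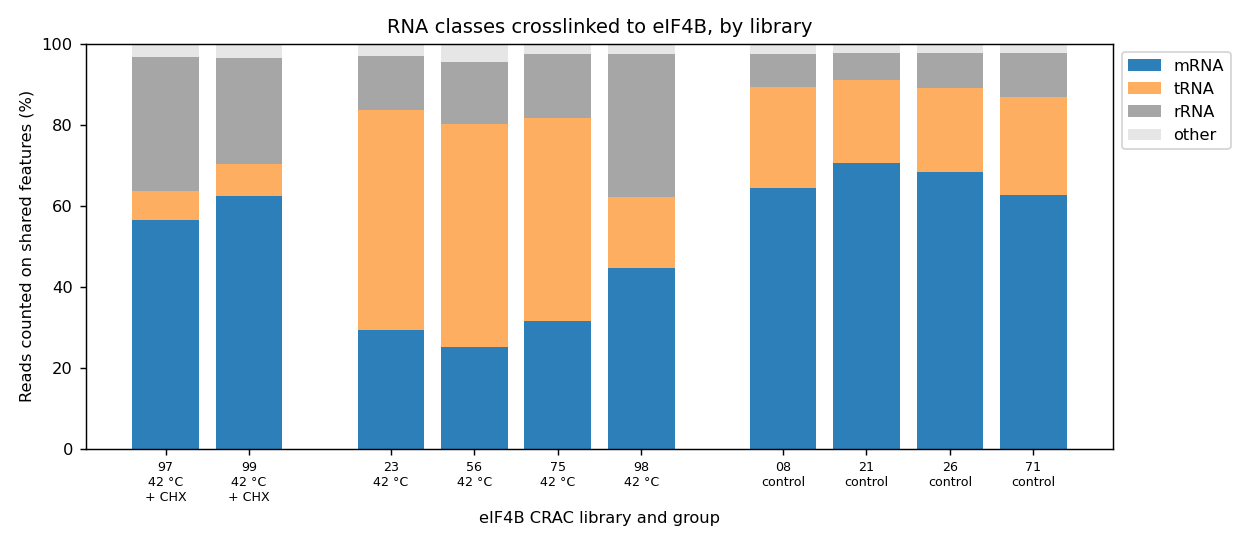
Share of counted reads (%) on mRNA, tRNA, rRNA and other RNA in each eIF4B CRAC library, with the libraries of heat shock with CHX on the left, heat shock in the middle and control on the right; each bar is 1 library. Both CHX libraries hold under 8% tRNA, library 98 holds 17.4%, and the other heat shock libraries hold 50.1% to 54.9%.

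The mRNA reads were also spread over more transcripts with CHX. The 10 most abundant mRNAs took 8.48% and 9.24% of mRNA reads in libraries 97 and 99, against 18.0%, 17.9%, 16.3% and 16.8% in libraries 23, 56, 75 and 98, and 9.72% to 11.5% in control. At a common depth of 46214 mRNA reads, 4380 and 4994 mRNAs would be expected with a read in libraries 97 and 99, against 2560, 1844, 4133 and 4067 in libraries 23, 56, 75 and 98. The leading mRNA was BTN2 in library 97 and HSP42 in library 99, both of which encode factors that gather misfolded proteins, while TDH3, HSP104 or HSP12 led the heat shock libraries.

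Across transcripts, eIF4B reads were higher on a minority of mRNAs with CHX and lower on few. Of 5488 transcripts tested with edgeR's quasi-likelihood test, 184 were higher (3.35%) and 12 lower (0.219%) in heat shock with CHX than in heat shock alone at a Benjamini-Hochberg adjusted p of 0.05. The median log2 fold change over all transcripts was 0.64 on this scale. Scaled to mapped reads instead, the median was 1.41, with 472 of 5567 transcripts higher (8.48%) and 0 lower, where 9 were lower at an unadjusted p of 0.05. This shift of scale is common to all transcripts, so that changes of gene groups are given below relative to the median of their scale as well. Against library 98 alone, 116 of 5665 were higher (2.05%) and 15 lower (0.265%). Without library 97 the number called was 94 and without library 99 it was 99, in place of 196, and a fit of the 6 libraries alone called 38, of which 18 were higher. Counted by overlap, libraries 97 and 99 both lay above the 4 heat shock libraries on 1363 transcripts (24.8%) and below them on 146 (2.66%).

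Messenger RNAs for cytosolic ribosomal proteins made up 85 of the 184 transcripts with more eIF4B reads. Of the 81 large-subunit protein mRNAs 51 were higher with CHX and 0 lower, where 3.35% of all transcripts were higher. Of the 57 small-subunit protein mRNAs 34 were higher and 0 lower. The large- and small-subunit median log2 fold changes were 2.24 and 2.09, which is 1.59 and 1.44 above the median of all transcripts. They were 1.59 and 1.47 above it when scaled to mapped reads. Together the large-subunit mRNAs took 6.22% and 5.66% of mRNA reads in libraries 97 and 99, against 1.84%, 1.95%, 2.53% and 2.37% in libraries 23, 56, 75 and 98. The small-subunit mRNAs took 4.97% and 4.40% in libraries 97 and 99, against 1.56%, 0.922%, 1.12% and 1.23% in libraries 23, 56, 75 and 98. The groups did not overlap on 66 of 81 and 44 of 57 members, all higher with CHX, where 24.8% of all transcripts were so placed. Neither sum overlapped between the groups, and both sums stayed far below the 17.7% ± 0.895 and 12.8% ± 0.434 (SD, n = 4) of control cells. The number of ribosomal protein mRNAs called higher, 85 of 138, was 67 against library 98 alone, 64 with TMM factors, 53 without library 97, 54 without library 99 and 12 in the fit of the 6 libraries alone, with 0 lower in each. Many of these proteins are encoded by near-identical gene pairs, and reads that fit several places were placed at random, so the split within a pair is uncertain.

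Single ribosomal protein mRNAs varied widely. RPS2 (YGL123W, chromosome VII), which encodes a protein of the small-subunit decoding region, had 3470 and 1609 RPM in libraries 97 and 99, against 73.5, 0, 118 and 123 RPM in libraries 23, 56, 75 and 98. Its log2 fold change was 4.80 ± 0.48 (SE, edgeR adjusted p = 2.0e-09), 4.36 against library 98 alone, and it was called under all 16 alternatives run. In control cells RPS2 averaged 3500 ± 403 RPM (SD, n = 4), a level that library 97 reached.

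RPS31 (YLR167W, chromosome XII) encodes a small-subunit protein fused to ubiquitin. It had 3854 and 3221 RPM in libraries 97 and 99, against 1117, 368, 989 and 649 RPM in libraries 23, 56, 75 and 98 (log2 fold change 2.17 ± 0.33, SE, edgeR adjusted p = 2.6e-05). RPS12 (YOR369C, chromosome XV) had 3505 and 3212 RPM, against 1176, 1645, 746 and 1162 RPM in heat shock (1.52 ± 0.31, SE, edgeR adjusted p = 0.0012). RPS1A (YLR441C, chromosome XII), one of a near-identical pair, had 3117 and 1570 RPM, against 1147, 64.9, 282 and 381 RPM in heat shock (2.33 ± 0.50, SE, edgeR adjusted p = 0.0023, not called without library 97).

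The large-subunit mRNAs with the most reads were not called. RPL41A, which encodes the smallest ribosomal protein, had 7847 and 4868 RPM in libraries 97 and 99, against 3117, 3267, 4634 and 3384 RPM in libraries 23, 56, 75 and 98 (log2 fold change 0.82 ± 0.28, SE, edgeR adjusted p = 0.10). It was called when scaled to mapped reads and without library 75. Its paralog RPL41B had log2 fold changes of -0.93 to 0.40 over the 16 alternatives and 0 calls, and the split of reads within this pair is uncertain. RPP0, the stalk protein that anchors the acidic P proteins, had 2383 and 2517 RPM with CHX, against 2647, 1688, 2716 and 2899 RPM (-0.03 ± 0.33, SE, edgeR adjusted p = 0.98). Fold changes over the 81 members lay between -2.36 for RPL15B and 4.66 for RPL22B, neither called and both picked out after their values were seen. The 69 mitochondrial ribosomal protein mRNAs held 0 calls, with a median log2 fold change of 0.68, near that of all transcripts.

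**Figure D2:**
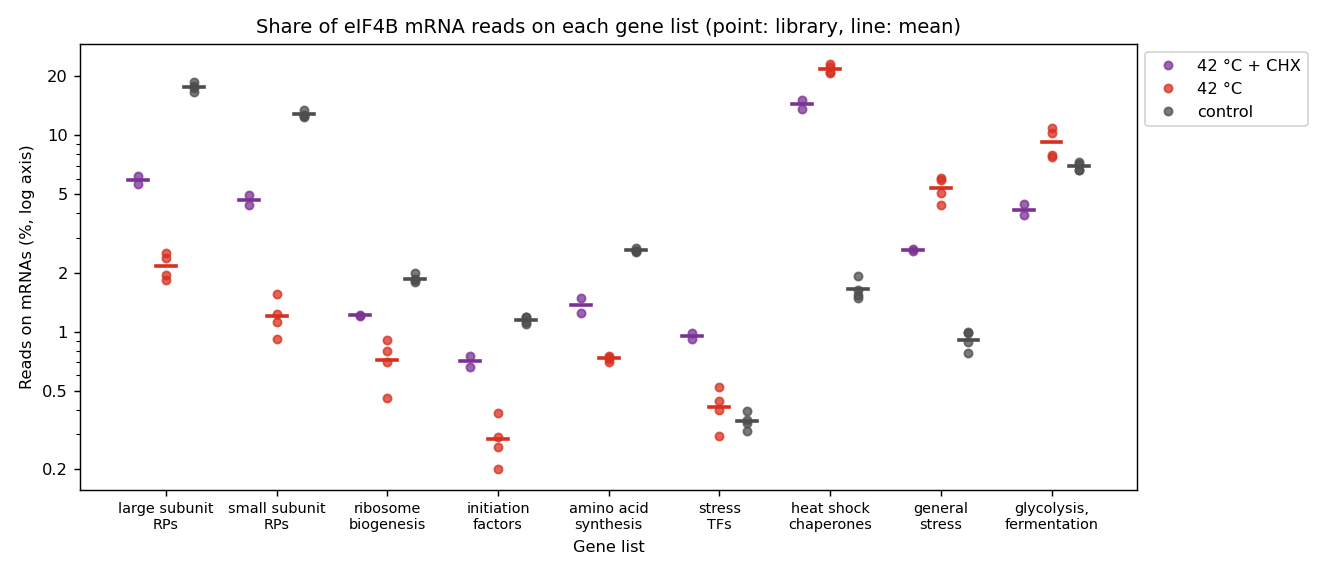
Share of eIF4B mRNA reads (%, log axis) on the members of 9 gene lists; each point is a library, each line the mean of a group, and within a list heat shock with CHX stands left, heat shock in the middle and control right. Ribosomal protein lists lie between heat shock and control in the CHX libraries, while chaperone, general stress and glycolysis lists lie below heat shock.

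Some mRNAs of the ribosome assembly line also took a larger share of eIF4B reads with CHX. Of 143 ribosome biogenesis mRNAs tested, 21 were higher and 0 lower, where 3.35% of all transcripts were higher, and 122 were not called. Their summed share was 1.21% in each of libraries 97 and 99, against 0.792%, 0.703%, 0.903% and 0.456% in libraries 23, 56, 75 and 98, and 1.86% ± 0.0865 (SD, n = 4) in control. In mock-shifted cells, which were filtered and moved to fresh glucose medium without heat, it was 2.86% ± 0.111 (SD, n = 3). The median log2 fold change over members was 3.26, or 3.00 with the 20 members that had no read in a group set at the fold that 3 reads over that group allow, while the sum, in which members with many reads weigh most, averaged 1.21% with CHX and 0.714% in heat shock. The median was 2.28 without library 99, 2.35 in the fit of the 6 libraries alone, 4.67 against library 98 alone and 4.03 without library 75. The calls numbered 58 when scaled to mapped reads, 47 with DESeq2, 13 without library 97, 10 without library 99, 14 without library 75, 14 without library 98 and 1 in the fit of the 6 libraries alone, where 78 members were tested.

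Several of the transcripts with the largest changes had almost no read in heat shock. NOP15, which encodes a factor for large-subunit maturation, had 380 and 78.0 RPM in libraries 97 and 99 and no read in any heat shock library. Set against 3 reads over the heat shock group, its pooled level with CHX was 48.2-fold higher (edgeR adjusted p = 0.00023), and its control mean was 113 RPM. DBP9, an RNA helicase of the same pathway, was 25.5-fold higher by the same reckoning (edgeR adjusted p = 0.014), and SLX9, an export factor of the small subunit, 24.2-fold higher (edgeR adjusted p = 0.030). These folds allow for counting error in heat shock only, not for the spread between libraries. DBP9 and SLX9 were not called without library 99, without library 75, without library 98 or against library 98 alone.

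RPA190, the largest subunit of RNA polymerase I, had 181 and 108 RPM in libraries 97 and 99, and 1 read, in library 98, over all heat shock libraries. The pooled ratio was 150, with a 95% exact counting interval of 26.7 to 5952 (edgeR adjusted p = 0.00035). NOP13, a nucleolar RNA-binding protein, had 173 and 80.4 RPM with CHX and 1 read, in library 75, in heat shock, a ratio of 117 with an interval of 20.8 to 4651 (edgeR adjusted p = 0.0014). Metabolic genes were among the same extremes. PRS3, a phosphoribosyl pyrophosphate synthetase subunit, had 108 and 134 RPM with CHX against 1 read in heat shock, a ratio of 169 with an interval of 30.0 to 6679 (edgeR adjusted p = 0.0017). RKI1, ribose-5-phosphate isomerase, had 227 and 74.6 RPM with CHX against 1 read, a ratio of 118 with an interval of 21.0 to 4695 (edgeR adjusted p = 0.00092). These 4 were called under all alternatives except the fit of the 6 libraries alone. AIR1, a subunit of a nuclear RNA surveillance complex, NRP1, a putative RNA-binding protein, and ATC1 were called too (edgeR adjusted p = 0.033, 0.020 and 0.032), with 119, 103 and 176 reads in the CHX libraries against 0, 0 and 1 in heat shock. The calls of AIR1 and ATC1 were lost without either CHX library, without library 75 and without library 98, that of NRP1 without library 99, library 75 or library 98, and that of ATC1 also without library 23. Against library 98 alone none of these 3 was called.

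Translation factor mRNAs held further calls. Of 31 initiation factor mRNAs 7 were higher and 0 lower, where 3.35% of all transcripts were higher, with a median log2 fold change of 1.92, 1.27 above that of all transcripts. The 7 were RLI1, TIF34, SUI3, GCD11, TIF35, PAB1 and CDC33, which include subunits of eIF3 and eIF2, the cap-binding protein and the poly(A)-binding protein; they were named after their values were seen. Only 1 of the list was called without library 97 and 1 without library 99, and 0 in the fit of the 6 libraries alone, against 17 when scaled to mapped reads. The 4 initiation factor mRNAs with most reads, SUI1, DED1, HCR1 and CLU1, had log2 fold changes of -0.14 to 0.93 with SE of 0.69 to 0.80, and none was called.

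TIF3 itself, whose product is the protein pulled down, had 231 and 285 RPM in libraries 97 and 99, against 0, 0, 143 and 22.5 RPM in libraries 23, 56, 75 and 98. The groups did not overlap, with CHX higher, as for 24.8% of all transcripts. The log2 fold change of 2.29 ± 0.79 (SE) was not called (edgeR adjusted p = 0.10). Against library 98 alone it was 3.51 (edgeR adjusted p = 0.018), and control cells averaged 442 ± 89.4 RPM (SD, n = 4). Of 15 elongation and termination factor mRNAs 4 were higher, where 3.35% of all transcripts were. The 4 were TEF4, SUP45, STM1 and EFT2, also named after their values were seen. The number of calls on this list was 1 without library 97, 0 without library 99, 2 without library 23, 2 without library 75, 6 without library 56, 2 against library 98 alone and 0 in the fit of the 6 libraries alone. Their median log2 fold change was 1.44, 0.80 above that of all transcripts, and 0.69 against library 98 alone, 0.02 under it. The abundant TEF1 and TEF2, which encode the same protein, eEF1A, had log2 fold changes of -0.79 ± 0.33 and -0.67 ± 0.34 (SE), or 0.05 and 0.13 when scaled to mapped reads, and were not called.

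Stress-response mRNAs remained heavily bound with CHX, at a lower share of the mRNA reads. The 41 heat shock chaperone mRNAs took 13.7% and 15.1% of mRNA reads in libraries 97 and 99, against 21.0%, 23.1%, 22.4% and 20.7% in libraries 23, 56, 75 and 98, and 1.65% ± 0.196 (SD, n = 4) in control. Of 40 tested, 0 were higher and 1 was lower, where 0.219% of all transcripts were lower. Their median log2 fold change was -0.22, which is 0.86 under the median of all transcripts, and 0.58 when scaled to mapped reads, 0.83 under the median of that scale.

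The 1 member of the chaperone list called was HSP12 (YFL014W, chromosome VI), a small membrane-associated stress protein. It had 6264 and 4439 RPM in libraries 97 and 99, against 30920, 24776, 19968 and 30280 RPM in libraries 23, 56, 75 and 98 (log2 fold change -2.31 ± 0.44, SE, edgeR adjusted p = 0.00055). Both CHX libraries lay far below all heat shock libraries and above the control mean of 886 RPM. The call was lost when scaled to mapped reads (-1.51, edgeR adjusted p = 0.051) and under no other alternative.

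The disaggregase HSP104 had 9627 and 13204 RPM in libraries 97 and 99, against 25554, 25447, 23784 and 19306 RPM in libraries 23, 56, 75 and 98 (log2 fold change -1.04 ± 0.56, SE, edgeR adjusted p = 0.41). HSP82, the inducible Hsp90, had a log2 fold change of -0.997 ± 0.34 and SSA4, an inducible Hsp70, of -1.50 ± 0.51 (SE, edgeR adjusted p = 0.10 for each). The groups did not overlap for these 3 genes, with CHX lower, as for 2.66% of all transcripts. Each of the 3 was called lower in the fit of the 6 libraries alone. Scaled to mapped reads their log2 fold changes were -0.16, -0.11 and -0.64. Of 39 general stress mRNAs 1 was lower, where 0.219% of all transcripts were. It was STF2, which encodes a protein linked to desiccation tolerance. STF2 had 1176 and 1010 RPM with CHX, against 10321, 5604, 5227 and 5694 RPM in heat shock (-2.62 ± 0.60, SE, edgeR adjusted p = 0.0048, not called without library 97, without library 99 or when scaled to mapped reads). The 21 trehalose and glycogen mRNAs held 0 calls, with 1.69% and 1.84% of mRNA reads with CHX against 1.78% to 2.37% in heat shock.

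Glycolytic mRNAs made up most of the transcripts with fewer reads. Of 24 glycolysis and fermentation mRNAs 7 were lower, TDH1, TDH2, TDH3, ENO1, ENO2, PGK1 and FBA1, and 0 higher. Of all transcripts 0.219% were lower. The list took 4.46% and 3.91% of mRNA reads in libraries 97 and 99, against 10.9%, 7.73%, 7.99% and 10.3% in libraries 23, 56, 75 and 98, and 6.96% ± 0.331 (SD, n = 4) in control. Its share with CHX was thus below both heat shock and control in every library. The median log2 fold change was -0.94, 1.59 under that of all transcripts, and -0.16, or 1.57 under it, when scaled to mapped reads. Calls numbered 10 against library 98 alone, 2 without library 97, 1 without library 99, 4 without library 98, 0 with TMM factors and 0 scaled to mapped reads.

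TDH3 (YGR192C, chromosome VII), the main glyceraldehyde-3-phosphate dehydrogenase, had 10015 and 9251 RPM in libraries 97 and 99, against 31788, 20773, 20080 and 27887 RPM in libraries 23, 56, 75 and 98 (log2 fold change -1.38 ± 0.26, SE, edgeR adjusted p = 0.00055). PGK1, phosphoglycerate kinase, had 2928 and 3077 RPM with CHX, against 6528, 7920, 8908 and 9121 RPM (-1.44 ± 0.34, SE, edgeR adjusted p = 0.0063, not called without library 97 or without library 99). The enolases ENO1 and ENO2 had log2 fold changes of -1.64 ± 0.41 and -1.27 ± 0.33 (SE, edgeR adjusted p = 0.012 and 0.017), and FBA1, the aldolase, one of -1.13 ± 0.31 (SE, edgeR adjusted p = 0.027). ENO1 was not called without library 99, ENO2 without either CHX library, and FBA1 without either CHX library or library 98. TDH1, TDH2 and TDH3 are close paralogs, as are the enolases, so the split of reads within each family is uncertain. TDH1 had a log2 fold change of -1.77 ± 0.51 (SE, edgeR adjusted p = 0.040), lost without library 97, without library 99 or without library 98.

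The other 3 transcripts lower with CHX were SFT2, TAD2 and YNL042W-B. SFT2, a Golgi membrane protein, had 3.84 and 225 RPM in libraries 97 and 99, against 338, 6773, 253 and 249 RPM in libraries 23, 56, 75 and 98, and was not called without library 56 or without library 97. TAD2, a subunit of the tRNA adenosine deaminase, had 50.0 and 46.8 RPM with CHX, against 1000, 281, 1432 and 298 RPM in heat shock (log2 fold change -3.96 ± 1.13, SE, edgeR adjusted p = 0.035), and was not called without any 1 of libraries 97, 99, 23 and 75. YNL042W-B had 34.6 and 70.7 RPM with CHX, against 441, 757, 396 and 130 RPM in heat shock, and was not called without library 97 or without library 99. Against library 98 alone none of these 3 was called.

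**Figure D3:**
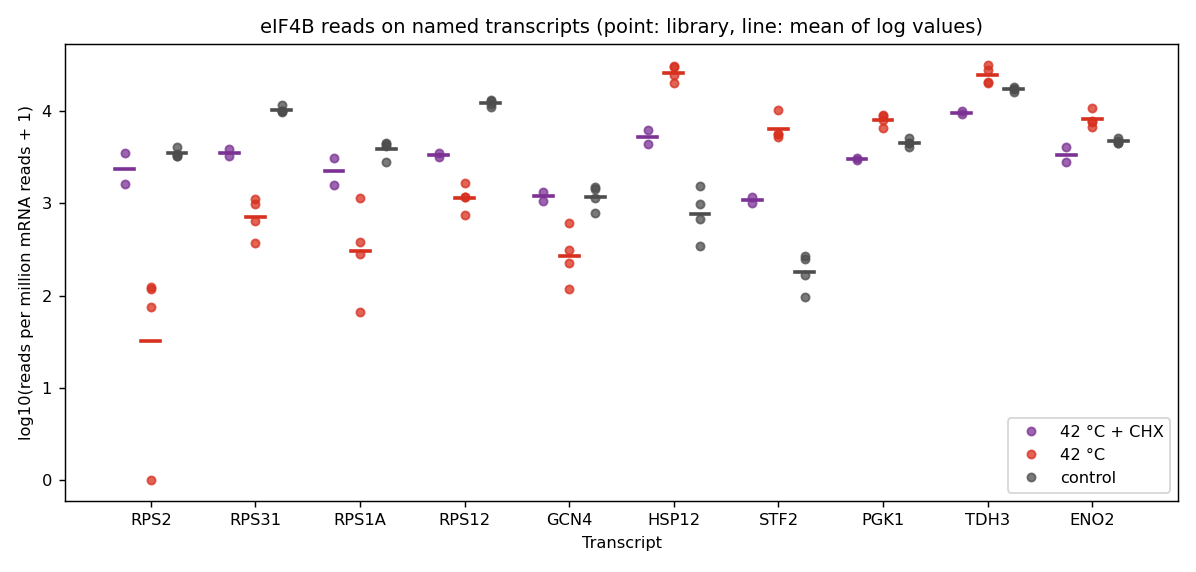
eIF4B reads on 10 named transcripts, as log10 of RPM + 1; each point is a library and each line the mean of the log values, with heat shock with CHX left, heat shock in the middle and control right. The CHX points of RPS2 lie at 3470 and 1609 RPM beside a control mean of 3500 RPM, those of RPS31 and RPS12 between heat shock and control, and those of PGK1, TDH3 and ENO2 below both other groups on average.

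Among regulators, GCN4 (YEL009C, chromosome V), the amino acid starvation activator whose mRNA is controlled by upstream reading frames, was the 1 stress transcription factor mRNA of 34 that was called, a number near the 3.35% of all transcripts. It had 1064 and 1339 RPM in libraries 97 and 99, against 118, 606, 226 and 308 RPM in libraries 23, 56, 75 and 98, and 1218 ± 324 RPM (SD, n = 4) in control. The log2 fold change of 1.97 ± 0.56 (SE, edgeR adjusted p = 0.035) was not called without any 1 of libraries 97, 99, 23, 75 and 98, against library 98 alone (edgeR adjusted p = 0.11), with a term for library numbers or in the fit of the 6 libraries alone. RPN4, the activator of proteasome genes, had 3074 and 3278 RPM with CHX, against 941, 433, 1287 and 967 RPM (1.80 ± 0.75, SE, edgeR adjusted p = 0.21). CIN5, a stress activator of the Yap family, had 919 and 986 RPM with CHX, against 73.5, 0, 54.9 and 185 RPM (3.48 ± 1.08, SE, edgeR adjusted p = 0.059). The groups did not overlap for RPN4 or CIN5, with CHX higher, as for 24.8% of all transcripts. As a list, the stress transcription factor mRNAs took 0.918% and 0.985% of mRNA reads in libraries 97 and 99, against 0.398%, 0.294%, 0.440% and 0.520% in libraries 23, 56, 75 and 98. Members with many reads weigh most in this sum. The median log2 fold change over the 34 members was 0.97, which is 0.33 above that of all transcripts.

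Other groups held few calls, to be read against the 3.35% of all transcripts that were higher. Amino acid biosynthesis mRNAs had 5 of 67 higher, ILV3, TRP3, TRP2, ASN2 and ILV5, and took 1.24% and 1.48% of mRNA reads with CHX against 0.697% to 0.752% in heat shock and 2.60% ± 0.0547 (SD, n = 4) in control. Ergosterol synthesis mRNAs had 2 of 25 higher, ERG7 and ERG10, cell wall and plasma membrane mRNAs 2 of 34, SCW10 and EXG1, and histone mRNAs 1 of 10, HTA1. Genes in these counts were named after their values were seen. The amino acid list held 2 calls without library 97, 2 without library 99, 3 against library 98 alone and 0 in the fit of the 6 libraries alone. The ergosterol and histone lists held 0 without library 97, without library 99, without library 75, against library 98 alone and in the fit of the 6 libraries alone. Without library 23 they held 1 and 0, and ergosterol held 1 without library 98. The cell wall list held 1 without library 99, without library 75, without library 98 or against library 98 alone. Proteasome, respiratory chain and mRNA decay mRNAs, 34, 41 and 38 tested, held 0 calls, with median log2 fold changes of -0.80, -0.40 and 0.84, or -0.05, 0.34 and 1.57 when scaled to mapped reads. Relative to the median of all transcripts these were -1.44, -1.04 and 0.20 on the mRNA scale.

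The second comparison sets the CHX libraries against unstressed cells and asks how far binding lay from the control pattern. Of 5488 transcripts 131 were higher (2.39%) and 35 lower (0.638%) in heat shock with CHX than in control, and the median log2 fold change was 0.20. The sign of this median was not stable. It was 0.02 scaled to mapped reads, -0.19 with a term for library numbers 08 to 56 against 71 to 99 and -0.10 without library 99. All control libraries were counted on the earlier annotation, so version and treatment cannot be told apart in this comparison. Without library 97 the number called was 93 and without library 99 it was 96, in place of 166. This comparison shares libraries 97 and 99 with the first comparison. Of 40 chaperone mRNAs 29 were higher, with a median log2 fold change of 3.46, and of 39 general stress mRNAs 18 were higher, with a median of 2.50. HSP104 had a log2 fold change of 5.53 and SSA4 one of 5.97.

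Some ribosomal protein mRNAs were lower than in control, with 16 of 81 large-subunit and 9 of 57 small-subunit mRNAs called lower and 0 higher. Of all transcripts 0.638% were lower. The 35 transcripts lower in all numbered 3 without library 97, 4 without library 99, 20 without control library 26, 9 with TMM factors and 181 with DESeq2, so the number of lower calls depends on having both CHX libraries. The median ribosomal protein log2 fold changes were -1.63 and -1.42 with CHX, beside -3.76 and -3.38 for heat shock alone against the same control libraries. There 80 of 81 and 55 of 57 were lower, where 593 of 5488 transcripts were lower (10.8%) and 271 higher (4.94%). RPS31 had log2 fold changes of -1.56 with CHX and -3.73 without, and RPS12 of -1.86 and -3.38. RPS2 had -0.46 with CHX (edgeR adjusted p = 0.88) and -5.26 without. For 31 initiation factor mRNAs the medians were -0.62 and -2.59, with 0 and 16 called lower.

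**Figure D4:**
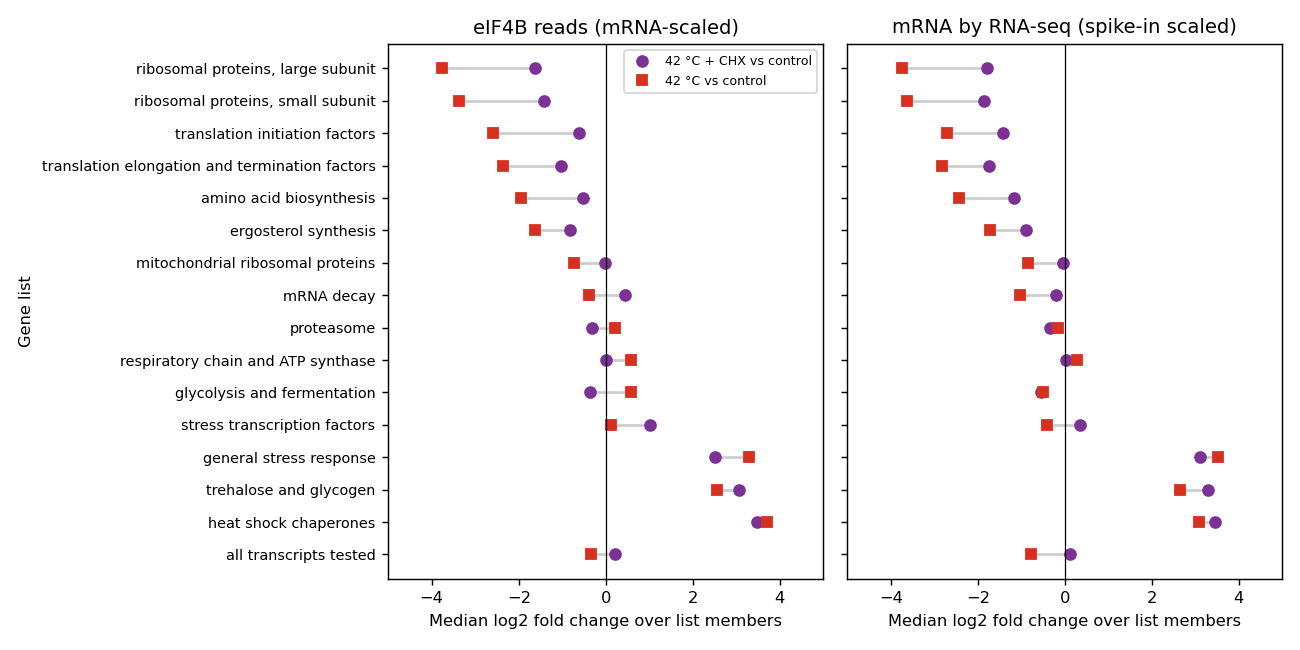
Median log2 fold change against control over the members of each gene list, for eIF4B reads scaled to mRNA reads (left panel) and for mRNA by RNA-seq scaled to the S. pombe spike-in (right panel); circles are heat shock with CHX, squares heat shock alone, and the lowest line is all transcripts tested. For large-subunit ribosomal proteins the circles lie at -1.63 for eIF4B and -1.80 for mRNA, and the squares at -3.76 and -3.73.

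The 2000 mRNAs most bound by eIF4B in control and mock-shifted cells give one value per library. Their median log2 ratio to the control mean (3 RPM added) was -0.56 and -0.51 in libraries 97 and 99, against -2.23, -4.97, -0.95 and -1.10 in libraries 23, 56, 75 and 98. Both CHX libraries were nearer control than every heat shock library, by 1.78 on average (exact two-sided permutation test, p = 0.267, adjusted p = 0.356), and by 0.56 over library 98. The low values of libraries 23 and 56 go with few reads, since 37.6% and 56.2% of these mRNAs had none in them, against 2.70% and 0.05% in libraries 97 and 99.

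RNA-seq shows how far the transcripts themselves differed. Scaled to the S. pombe spike-in, 4983 of 6320 mRNAs were higher (78.8%) and 182 lower (2.88%) in heat shock with CHX than in heat shock alone, with a median log2 fold change of 1.02. Scaled to mRNA reads, 3733 of 6299 were higher (59.3%) and 776 lower (12.3%), with a median of 0.53. DESeq2 with its own size factors called 2252 higher and 1910 lower, so the balance of directions in RNA-seq depends on the scale. Reads on mRNAs numbered 51.1 and 54.0 per S. pombe read in libraries J and O, against 37.4, 34.8 and 40.8 in E, F and I and 46.1, 49.3 and 52.4 in control libraries A, B and H.

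In the RNA-seq data all 81 large-subunit and all 57 small-subunit mRNAs were higher with CHX, with median log2 fold changes of 1.74 and 1.72 on the spike-in scale. Of all mRNAs 78.8% were higher on that scale, with a median of 1.02. Scaled to mRNA reads, as for eIF4B, 79 and 57 were higher, with medians of 1.26 and 1.24. Of all mRNAs 59.3% were higher and 12.3% lower on the mRNA scale, with a median of 0.53. On the mRNA scale 19 of 24 glycolysis and fermentation mRNAs, 29 of 34 proteasome mRNAs and 35 of 41 respiratory chain mRNAs were lower, with medians of -0.66, -0.78 and -0.68, against -0.18, -0.28 and -0.19 on the spike-in scale. Chaperone mRNAs had 10 of 41 higher and 18 lower on the mRNA scale, with a median of -0.19, and 12 higher and 1 lower on the spike-in scale, with a median of 0.28. RPS2 had 26.0 and 40.1 reads per 1000 S. pombe reads in libraries J and O, against 10.9, 9.77 and 11.4 in E, F and I (log2 fold change 1.63). HSP12 had 438 and 384 in J and O, against 469, 435 and 557 in E, F and I (-0.24, edgeR adjusted p = 0.29), and these groups overlapped. On the mRNA scale the log2 fold change of HSP12 was -0.72 by RNA-seq, beside -2.31 for eIF4B. GCN4 mRNA had 18.2 and 23.8 reads per 1000 S. pombe reads in J and O, against 11.4, 11.0 and 10.8 in E, F and I.

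The difference between the change in eIF4B reads and the change in mRNA was tested directly with an interaction term in limma, both scaled to mRNA reads. Of 5683 transcripts 0 were called, with 263 above and 58 below zero at an unadjusted p of 0.05, and no other tool was run for it. The median difference (log2, eIF4B minus mRNA) was 0.45 over all transcripts, 1.22 over large-subunit mRNAs, 0.93 over small-subunit mRNAs, 1.09 over ribosome biogenesis mRNAs, -0.07 over chaperones and -0.33 over glycolysis and fermentation. Over all transcripts the median was 0.05 with libraries 98 and I as the only heat shock references. It was 0.78 when scaled to mapped reads for CRAC and S. pombe reads for RNA-seq. For HSP12 the difference was -1.72 ± 0.45 (SE) and for RPA190 4.58 ± 1.13 (SE), each with a limma adjusted p of 0.83. RPA190 had 1 read in heat shock, so its value depends on how low counts are handled. A change of eIF4B per mRNA on a single transcript was thus not detectable with these libraries.

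**Figure D5:**
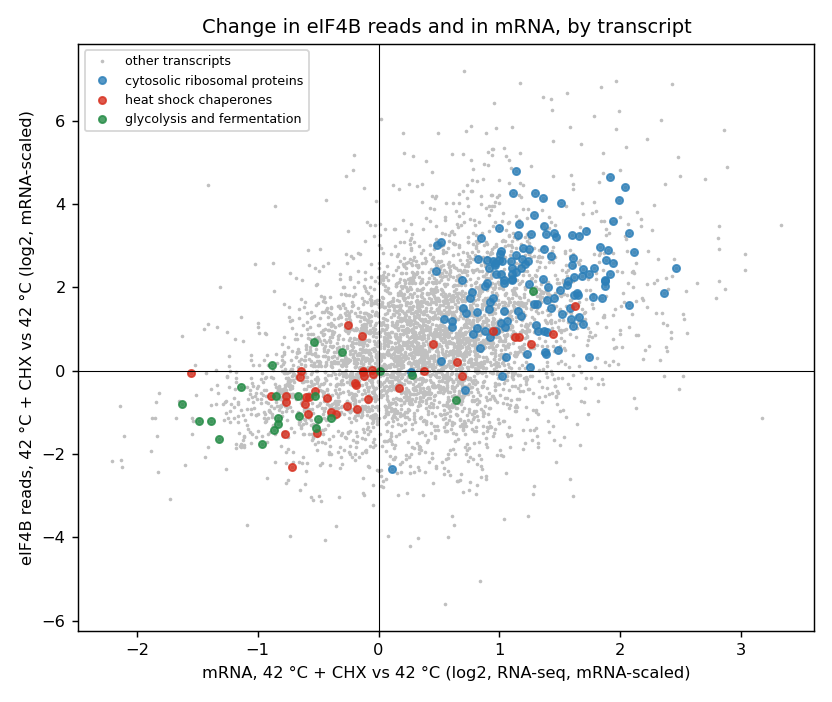
Log2 fold change of eIF4B reads (y axis) against that of mRNA by RNA-seq (x axis), heat shock with CHX over heat shock, both scaled to mRNA reads; each point is 1 of 4606 transcripts with at least 100 eIF4B reads over the 6 libraries and a read in both groups. Ribosomal protein mRNAs lie at the upper right, with medians of 1.24 to 1.26 in mRNA and 2.09 to 2.24 in eIF4B reads, and glycolysis mRNAs mostly at the lower left.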

How the data were processed

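CRAC reads crosslinked to tagged eIF4B and RNA-seq reads were analysed from the deposited counts. The authors aligned reads with Novoalign to the intron-free S. cerevisiae genome EF4.74, placed reads with several positions at random and counted them with pyReadCounters. The deposited counts are sense-strand reads per feature without normalization, and gene names matched RefSeq R64 for 5780 of 6105 mRNAs. Transcripts were tested with edgeR 4.0.16 (glmQLFit, glmQLFTest, filterByExpr with a minimum count of 10), over all 18 eIF4B libraries so that groups shared one spread, with reads on shared mRNAs as library size. RNA-seq counts were fitted over 18 libraries with S. pombe reads as library size. These included wild-type cells after glucose withdrawal and cells lacking Ski2 or Xrn1, with and without heat shock. The difference between assays used limma 3.58.1 (voomWithQualityWeights). Adjusted p-values are Benjamini-Hochberg over all transcripts tested. Shares of single libraries were compared by exact permutation over libraries.

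Calls were made at 0.05. Named transcripts were the 10 most changed in each direction among those called with at least 100 reads and no overlap between groups, the 4 members of each list with most reads, and TIF3; those named otherwise are said to be. The libraries compared, the 19 gene lists and the tests were chosen with earlier results of these data known. Alternatives were mapped reads or TMM as scale, DESeq2 1.42.0, no filter, other reference libraries, a series term, cDNA counts and leaving out each library. Mapped reads ran between 192570 and 3488961 in the 6 libraries, and 4 untagged libraries and the eIF4A and Ded1 libraries entered no test. PCR duplicates had been collapsed by the authors. Groups share no replicate numbers.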

Additional observations from a re-analysis of the deposited data

Results flagged for a closer look

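Several libraries lay far from the rest of their group of 4, by Dixon's gap test at its 95% limit. Chance alone flags about 1 group in 20, and 11 of 66 groups tested were flagged. These numbers cannot be set against each other as an excess. A single read beside 0 in the other libraries is always flagged, and the shares of a library are not independent. Within heat shock, library 98 had a tRNA share of 17.4% beside 50.1% to 54.9% in the others and an rRNA share of 35.4% beside 13.4% to 15.9%. Mitochondrial ribosomal protein mRNAs took 0.490% of mRNA reads in heat shock library 75 beside 0.422% to 0.431%, and 0.506% in control library 08 beside 0.620% to 0.641%. SFT2 had 6773 RPM in heat shock library 56 beside 249 to 338 RPM, and STF2 had 10321 RPM in library 23 beside 5227 to 5694 RPM. The remaining flags are single reads: RPA190 and ATC1 had 1.50 RPM in library 98, NOP13 and PRS3 had 1.96 RPM in library 75, and RKI1 had 14.7 RPM in library 23, each beside 0 in the other heat shock libraries.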

How the results depend on the processing

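Scaling to mapped reads called 472 transcripts (472 higher, 0 lower) between heat shock with CHX and heat shock, and DESeq2 called 385 (363 higher, 22 lower). The fit of the 6 libraries alone called 38 (18 higher, 20 lower). The number lower was 2 with TMM factors, 6 with a term for library numbers 08 to 56 against 71 to 99, 22 with libraries 75 and 98 as reference and 6 with mapped reads against library 98 alone, where the number higher with mRNA scaling was 116. Leaving out 1 library gave 94 to 216 calls, 91 to 200 higher and 3 to 16 lower. Against control, DESeq2 called 340 (181 lower) and TMM factors 9 lower, and leaving out 1 library gave 93 to 139 calls, 90 to 112 higher and 3 to 27 lower. In RNA-seq, 776 mRNAs were lower on the mRNA scale, DESeq2 called 2252 higher and 1910 lower, and leaving out 1 library gave 4631 to 5078 calls and 109 to 200 lower.

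The mRNA share difference was 42.0 points of reads other than rRNA, 16.3 points of reads counted on all features and 14.8 points against library 98. The tRNA difference was -9.86 points against library 98. The rRNA difference was 21.3 points of all counted reads and turned to -5.81 points against library 98. Shares over all features, and those with library 98 as the only reference, were alternatives chosen after seeing the data, as was mapped-read scaling against library 98. The interaction called 0 transcripts under every alternative run. No paired analysis was possible because the groups compared share no replicate numbers.

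The CHX libraries share their annotation version with library 98 alone among the heat shock libraries, so that version and drug can be told apart only against this single library. Of 196 calls, 103 were also made against it. Libraries 23 and 56 held 68014 and 46214 mRNA reads, so a weakly bound mRNA could go without a read there. Of the 88 named transcripts tested, no called one changed sign under any of the 16 alternatives.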

Other observations

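Within the tRNA reads, the species differed between libraries, some along the groups and some not. tL(UAA) took 1.93% and 1.68% of tRNA reads in libraries 97 and 99, against 11.1%, 16.2%, 2.47% and 1.88% in heat shock libraries 23, 56, 75 and 98. tK(CUU) took 7.07% and 8.08% in libraries 97 and 99, against 1.49%, 3.10%, 4.89% and 10.4% in libraries 23, 56, 75 and 98, and tG(GCC) took 21.6% and 13.6%, against 9.33%, 6.76%, 10.8% and 12.8%. tR(UCU) took 8.36% and 4.16% in libraries 97 and 99, against 1.80%, 1.14%, 2.04% and 3.54%. For tG(GCC) and tR(UCU) both CHX libraries lay above all 4 heat shock libraries. For tL(UAA) and tK(CUU) library 98 was nearer the CHX libraries than libraries 23 and 56 were. These species were chosen after their values were seen, and the part of series and depth in them was not tested.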
